A study of Mus musculus with 37 samples.

Results

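The conjugating enzymes examined here are UDP-glucuronosyltransferases (Ugt), glutathione S-transferases (Gst, with the membrane-bound Mgst) and cytosolic sulfotransferases (Sult). Every protein-coding gene of the deposited count table whose name begins with Ugt, Gst plus a class letter, Mgst or Sult, followed by a digit, was taken as a member. This gave 59 of 32108 genes, namely 20 Ugt genes, 24 Gst and Mgst genes and 15 Sult genes. One member, Sult1c1, had no count in any of the 37 libraries, and 19 members averaged under 1 CPM in each of the 8 TRAP groups. CPM is a count scaled to the size and composition of its library.

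These enzymes carry out the step of detoxification in which a small molecule is joined to glucuronic acid, glutathione or sulfate. The product is more soluble in water and is exported by efflux pumps into urine or bile. In the kidney the proximal tubule is known as the main site of conjugation, and several members are textbook targets of the oxidative stress factor NRF2 or of the aryl hydrocarbon receptor.

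Ribosome-bound RNA of mouse podocytes, which are the epithelial cells of the glomerular filter, was collected by translating ribosome affinity purification (TRAP) in 36 libraries. The type 2 model had 5 libraries of eNOS-/- db/db mice (diabetic) and 5 of eNOS-/- mice (control) at an age of 3 months, and 3 diabetic and 4 control libraries at 6 months. All mice of that model lacked the endothelial nitric oxide synthase eNOS, and db/db is a mutation of the leptin receptor. In the type 1 model, 5 libraries came from mice given streptozotocin (STZ) 3 weeks earlier and 4 from mice without STZ, all aged 3 months, and 5 STZ and 5 untreated libraries came from mice at 24 weeks of STZ and an age of 8 months. STZ kills the insulin-producing cells of the pancreas, and in that model a drug effect cannot be told apart from diabetes. One library of total RNA came from whole kidney of an eNOS-/- control aged 3 months. All mice were C57BL/6, and the deposited tables are named for Cre driven by podocin, a podocyte gene. No label states that each replicate is its own animal, and the p-values then reflect only how far libraries differ, which may be technical.

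The TRAP libraries held 6702120 to 37786025 counts each, and the kidney library 28033680. The 7 podocyte markers summed to 20819 to 33363 CPM in 3-month type 2 controls, against 348 CPM in whole kidney. The 18 proximal tubule markers summed to 13053 to 19578 CPM in the same TRAP controls, against 39700 CPM in whole kidney. Fewer cells of a type and less RNA per cell cannot be told apart in such libraries.

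The promoters of 5 members that moved in the same direction in all 4 diabetic comparisons are shown, because they hold a pair of one gene cluster that was higher, Gsta1 and Gsta2, a pair of another cluster that was lower, Ugt2b37 and Ugt2b38, and Mgst1, which was higher and holds a motif. Each is the RefSeq sequence on GRCm38.p6 from 250 bases before to 50 bases after the annotated start. Capitals mark 2 motifs, the antioxidant response element core TGANNNNGC bound by NRF2 and the xenobiotic response element core GCGTG bound by the aryl hydrocarbon receptor, both searched on either strand.
Gsta1, chr9:78230419-78230718, plus strand: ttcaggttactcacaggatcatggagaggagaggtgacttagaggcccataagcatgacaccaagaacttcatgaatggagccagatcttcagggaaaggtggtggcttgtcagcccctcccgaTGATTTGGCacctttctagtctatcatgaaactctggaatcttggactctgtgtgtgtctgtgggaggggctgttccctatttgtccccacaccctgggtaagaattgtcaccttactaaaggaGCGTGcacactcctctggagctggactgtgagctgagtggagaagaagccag
Gsta2, chr9:78347096-78347395, minus strand: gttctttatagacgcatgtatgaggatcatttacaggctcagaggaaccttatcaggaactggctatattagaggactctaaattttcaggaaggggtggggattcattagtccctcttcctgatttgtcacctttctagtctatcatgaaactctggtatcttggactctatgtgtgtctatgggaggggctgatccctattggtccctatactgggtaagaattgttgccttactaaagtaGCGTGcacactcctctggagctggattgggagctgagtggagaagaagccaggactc
Mgst1, chr6:138140277-138140576, plus strand: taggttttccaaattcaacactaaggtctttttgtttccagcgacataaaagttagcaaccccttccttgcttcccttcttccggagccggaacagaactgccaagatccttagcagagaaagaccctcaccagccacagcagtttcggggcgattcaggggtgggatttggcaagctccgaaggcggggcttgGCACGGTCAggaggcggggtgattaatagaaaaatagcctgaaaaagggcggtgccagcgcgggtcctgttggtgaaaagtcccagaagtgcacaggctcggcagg
Ugt2b37, chr5:87254739-87255038, minus strand: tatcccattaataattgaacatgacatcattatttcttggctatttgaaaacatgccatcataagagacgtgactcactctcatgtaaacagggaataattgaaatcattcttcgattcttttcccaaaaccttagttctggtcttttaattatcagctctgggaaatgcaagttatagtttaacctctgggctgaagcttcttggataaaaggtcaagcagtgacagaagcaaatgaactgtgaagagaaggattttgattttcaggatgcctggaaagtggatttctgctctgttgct
Ugt2b38, chr5:87424154-87424453, minus strand: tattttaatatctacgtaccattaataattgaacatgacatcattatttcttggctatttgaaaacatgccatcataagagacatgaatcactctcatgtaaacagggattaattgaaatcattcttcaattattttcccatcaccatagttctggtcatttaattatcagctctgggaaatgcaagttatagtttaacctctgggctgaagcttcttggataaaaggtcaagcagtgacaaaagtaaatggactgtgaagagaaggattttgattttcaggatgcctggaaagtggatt
The Gsta1 window held both motifs, the Gsta2 window held the xenobiotic motif, and this start of Mgst1 held the antioxidant motif on the reverse strand. Another start of Mgst1 held neither, nor did the windows of Ugt1a2, Ugt2b37 and Ugt2b38, while that of Ugt8a held the xenobiotic motif. The motifs are common: TGANNNNGC lies in 41.341% and GCGTG in 32.386% of 32851 promoters of this length. Of the 53 members with a promoter in the table, 25 held the antioxidant motif and 12 the xenobiotic one in at least 1 window. The HNF1 motif was found in 0.009% of all promoters and in no member's. The Gsta1 and Gsta2 windows shared 232 of 311 aligned positions (74.6%), and those of Ugt2b37 and Ugt2b38 shared 273 of 314 (86.9%). A match is a description of letters and does not show binding.

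On a scale per length, the mean deposited FPKM over the 36 TRAP libraries was highest for Gsta4 at 139.8 FPKM, followed by Gstm1 at 104 FPKM, Sult1d1 at 69.4 FPKM and Gsta2 at 53.2 FPKM. Gsta4 is known for conjugating the lipid peroxidation product 4-hydroxynonenal. Among Ugt genes the highest were Ugt3a2 at 45.2 FPKM, Ugt2b38 at 31.6 FPKM and Ugt1a2 at 17.9 FPKM, and among Sult genes Sult1c2 at 20.4 FPKM and Sult1a1 at 5.03 FPKM followed Sult1d1. These means span diabetic and control libraries, and the Ugt1a2 and Gsta2 means came mostly from diabetic ones. Gsta2 held 0.056 to 34.1 FPKM in control and 49.0 to 235 FPKM in diabetic TRAP libraries.

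The main question of the series is which podocyte RNAs change in diabetes. Counts were tested with edgeR's quasi-likelihood F test over all genes, and a gene is called when its Benjamini-Hochberg adjusted p is below 0.05. In the 3-month type 2 comparison 6 members were called higher and 5 lower of 43 tested (25.6%), where 3.99% of all 17180 genes tested were called, 2.03% higher and 1.96% lower. Without diabetic libraries 4 and 5, which held the least Gsta4 of that group, 6 were higher and 3 lower of 42. At 6 months 8 were higher and 8 lower of 43 (37.2%), with 22.9% of all genes called, 11.2% higher and 11.7% lower. In the 3-week type 1 comparison 11 were higher and 4 lower of 42 (35.7%), with 6.50% of 16279 genes called, 3.78% higher and 2.72% lower. That count was 9 members without diabetic library 2 and also 9 without diabetic library 3. At 24 weeks 6 were higher and 3 lower of 42 (21.4%), with 0.897% of all genes called, 0.448% higher and 0.448% lower. The median log2 change of the members tested was 0.32, 0.18, 0.40 and 0.15 in those 4 comparisons, against 0.04, -0.01, 0.00 and -0.01 over all genes. Groups did not overlap, diabetic libraries above controls, for 8 members at 3 months (2.96% of all genes), 10 at 6 months (14.6%), 9 at 3 weeks (4.70%) and 8 at 24 weeks (1.79%). Diabetic libraries lay wholly below controls for 5 members at 3 months (3.69% of all genes), 9 at 6 months (14.8%), 4 at 3 weeks (3.42%) and 3 at 24 weeks (1.54%).

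Across the 4 comparisons 23 members were called at least once. Ugt1a2, Gsta1, Gsta2 and Mgst1 were higher in all 4, a pattern met by 17 of the 15965 genes tested in all of them (0.106%). Ugt2b37, Ugt2b38 and Ugt8a were lower in all 4, as were 44 of all genes (0.276%). Ugt genes moved both ways: of 14 tested, 2, 2, 3 and 3 were higher and 5, 5, 4 and 3 lower at 3 months, 6 months, 3 weeks and 24 weeks. Of 21 Gst and Mgst genes tested, 4, 6, 6 and 3 were higher by edgeR, where 2.03%, 11.2%, 3.78% and 0.448% of all genes were. The 3 of 21 that edgeR called lower were all at 6 months of the type 2 model, where 11.7% of all genes were lower. The plot of changes shows these 23 members side by side.

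**Figure D1:**
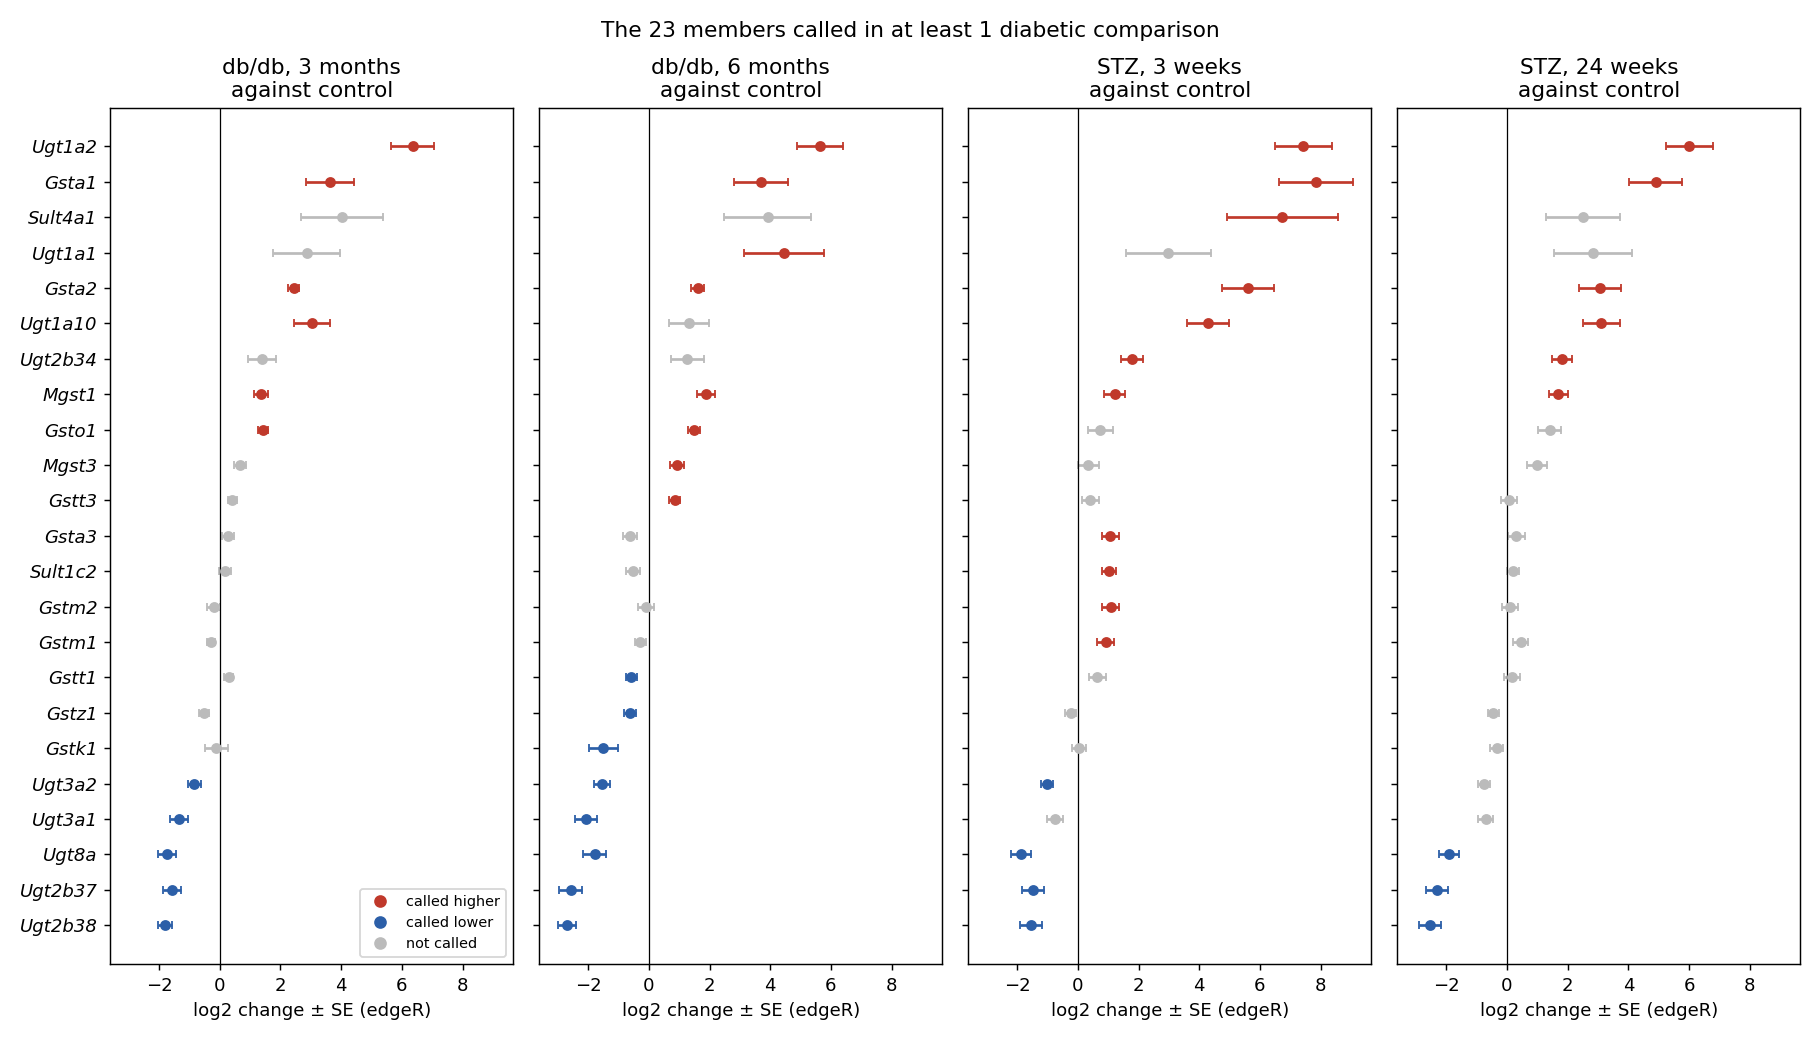
Log2 change of diabetic over control TRAP libraries (x axis, edgeR, bars are the SE) for the 23 members called in at least 1 diabetic comparison, 1 panel for each comparison, ordered by mean change. Red marks called higher, blue called lower and grey not called; Ugt1a2 tops every panel's order with changes of 5.64 to 7.42, and Ugt2b38, at the foot, had changes of -2.71 to -1.54.

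Ugt1a2, on chromosome 1 (88200601 to 88218997, plus strand), is 1 of 9 Ugt1a genes that each have a first exon of their own joined to common exons downstream. Its level at 3 months of the type 2 model was 11.2, 37.5, 24.4, 15.1 and 7.51 CPM in diabetic libraries, against 0.111, 0.201, 0.545, 0.0827 and 0.246 CPM in controls. At 6 months it was 39.3, 29.5 and 10.6 CPM in diabetic libraries, against 1.60, 0.420, 0.190 and 0.101 CPM in controls. No diabetic library overlapped a control in either set, and the log2 changes were 6.36 (SE 0.71, adjusted p = 3.16e-05) and 5.64 (SE 0.76, adjusted p = 0.00017).

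In the type 1 model the rise of Ugt1a2 reached 253, 163, 227, 101 and 16.2 CPM in diabetic libraries at 3 weeks, against 0.223, 2.20, 0.676 and 0.369 CPM in controls. At 24 weeks diabetic libraries held 60.8, 130.1, 149, 18.5 and 104 CPM, against 0.407, 0.612, 1.297, 2.95 and 1.68 CPM in controls. The groups were again apart, with log2 changes of 7.42 (SE 0.94, adjusted p = 0.000184) and 6.01 (SE 0.78, adjusted p = 0.00117). Whole kidney of a control held 0.488 CPM of Ugt1a2, below all 18 diabetic TRAP libraries; whole kidney of diabetic mice was not analysed here.

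Because the Ugt1a genes have 1311 exon bases in common, which is 59.3% of the exon bases of Ugt1a2, reads of 1 gene can be counted on another. Counts of the 9 genes were therefore also summed. The summed locus was 74.2 ± 18.5 CPM in diabetic and 56.6 ± 12.1 CPM in control libraries at 3 months (SD, n = 5 each), a log2 change of 0.39 (adjusted p = 0.268) that was not called. At 6 months it was 84.4 ± 19.4 CPM in 3 diabetic and 63.0 ± 4.90 CPM in 4 control libraries (log2 0.41, adjusted p = 0.163), also not called. In the type 1 model the sum was 276 ± 129 CPM in 5 diabetic and 76.5 ± 18.4 CPM in 4 control libraries at 3 weeks (log2 1.80, adjusted p = 0.00209), which was called. At 24 weeks it was 165 ± 64.5 CPM in 5 diabetic and 71.3 ± 14.4 CPM in 5 control libraries (log2 1.202, adjusted p = 0.0557), not called. An antisense transcript, Gm20528, overlaps 394 exon bases of Ugt1a2 (17.8%), 534 of Ugt1a10 (23.6%) and 922 of Ugt1a1 (41.5%). Without strand its reads cannot be told apart from those of these genes.

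Shares within the locus were also computed. Ugt1a2 took 25.0 ± 11.8% of Ugt1a counts in diabetic libraries, against 0.422 ± 0.298% in controls, at 3 months of the type 2 model. At 6 months the share was 30.3 ± 13.5% in diabetic and 0.984 ± 1.26% in control libraries. At 3 weeks it was 49.97 ± 21.8% in diabetic and 1.10 ± 1.12% in control libraries, and at 24 weeks 51.3 ± 17.4% in diabetic and 2.05 ± 1.70% in control libraries. Ugt1a7c, the gene with the most Ugt1a counts in control libraries, took 62.8 ± 12.8% in diabetic and 97.2 ± 0.962% in control libraries at 3 months. The level counted on Ugt1a7c was not called in any comparison (log2 -0.24, -0.42, 0.21 and -0.28). Its annotation ends at 88220002, past the other Ugt1a genes, which end at 88218997 to 88219004. Reads of other Ugt1a transcripts that run past those ends may be counted on Ugt1a7c. The Ugt1a6a and Ugt1a6b transcripts are matched over 100% of their length by Ugt1a7c, so their reads may be counted on it. How shared reads were assigned is not stated.

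**Figure D2:**
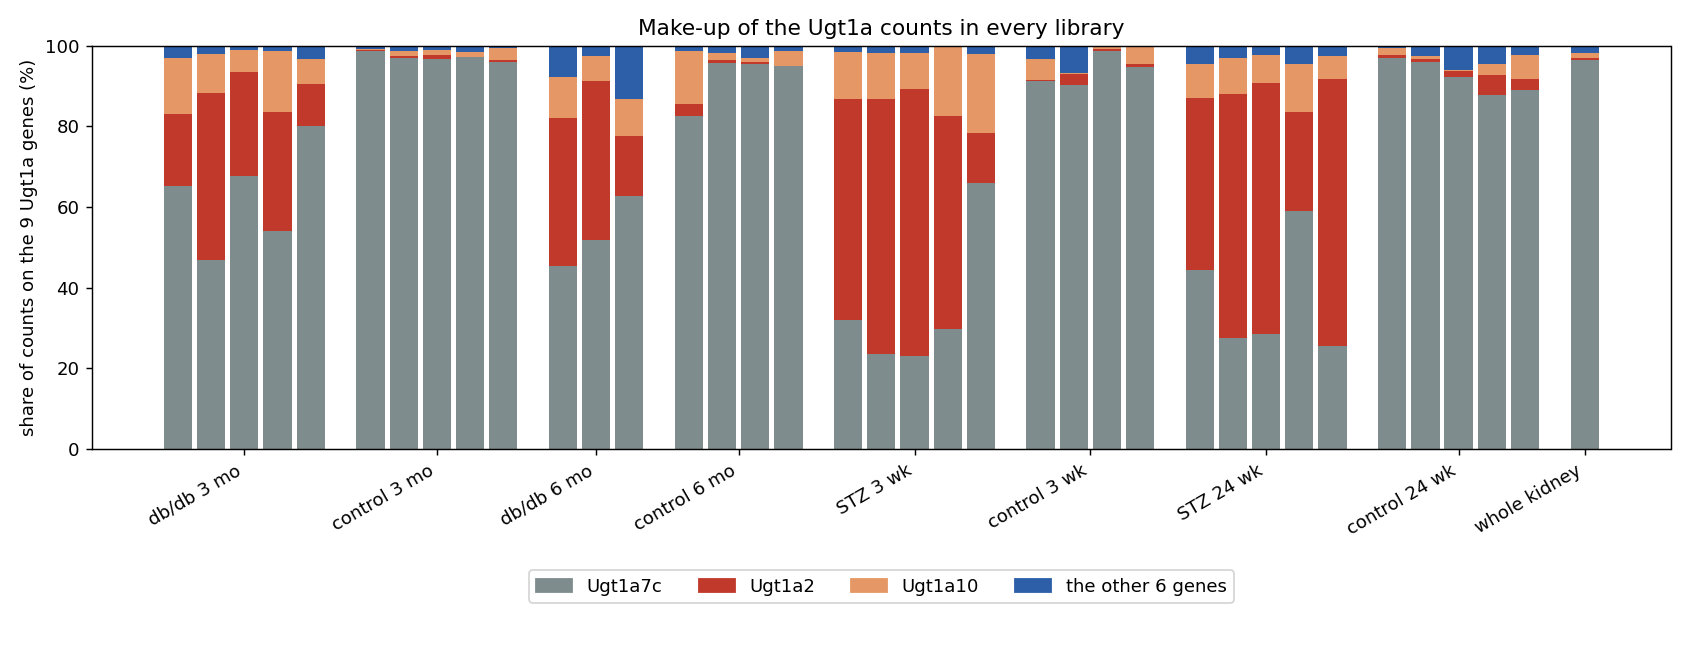
Share of the counts on the 9 Ugt1a genes (y axis, percent) taken by Ugt1a7c (grey), Ugt1a2 (red), Ugt1a10 (orange) and the other 6 genes (blue), 1 bar per library, grouped by model, age and diabetes. Ugt1a7c fills over 80% of each control bar and 96.6% of the whole-kidney bar, while Ugt1a2 takes 10.4 to 66.3% of the diabetic bars.

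Ugt1a10, another gene of the locus, was also called higher in 3 comparisons. It held 8.59, 8.82, 5.08, 7.60 and 4.52 CPM in diabetic libraries at 3 months, against 0.148, 0.503, 0.792, 0.868 and 1.92 CPM in controls (log2 3.04, SE 0.60, adjusted p = 0.00584). At 3 weeks diabetic libraries held 53.3, 29.0, 30.6, 33.4 and 26.0 CPM, against 3.35, 0.0733, 0.676 and 2.69 CPM in controls (log2 4.28, SE 0.70, adjusted p = 0.00111). Neither pair of groups overlapped. The change at 24 weeks (log2 3.11, adjusted p = 0.0147) lost its call without control library 1 (adjusted p = 0.0504) or control library 2 (adjusted p = 0.0505). The 6-month change (log2 1.33, adjusted p = 0.150) was not called by edgeR, but was without control library 1 (log2 2.34, adjusted p = 0.0171) and by limma (adjusted p = 0.0206). Ugt1a1, the bilirubin-conjugating enzyme, was called at 6 months (3.54, 1.58 and 1.53 CPM in diabetic libraries, against 0, 0, 0 and 0.336 CPM in controls, adjusted p = 0.0213). That call was lost without diabetic library 1 or control library 3.

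Ugt2b34, a member of the UGT2B class known for steroids, was higher in both type 1 comparisons. It held 30.8, 17.4, 17.8, 10.1 and 11.4 CPM in diabetic libraries at 3 weeks, against 8.63, 3.96, 3.31 and 3.64 CPM in controls, and the groups did not overlap (log2 1.79, SE 0.36, adjusted p = 0.00447). At 24 weeks the log2 change was 1.81 (SE 0.34, adjusted p = 0.00708), again without overlap. In the type 2 model the log2 changes were 1.40 at 3 months, without overlap, and 1.26 at 6 months, and were not called (adjusted p = 0.0976 and 0.0977). The 3-month change was called by DESeq2 (adjusted p = 0.0254). The 6-month change was called without diabetic library 3 (log2 1.775, adjusted p = 0.00551), which held 0.51 CPM against 9.45 and 8.81 CPM in the other diabetic libraries. The difference between the models was not called at either time (adjusted p = 0.824 and 0.731).

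Ugt2b37 and Ugt2b38, of the same cluster on chromosome 5, went the other way. Ugt2b38 held 25.3, 18.3, 32.0, 38.6 and 31.5 CPM in diabetic libraries at 3 months, against 81.1, 93.1, 119, 121 and 97.9 CPM in controls. Diabetic libraries at 6 months held 18.7, 11.4 and 7.26 CPM, against 54.8, 94.8, 95.7 and 83.6 CPM in controls. All diabetic libraries lay below all controls, with log2 changes of -1.82 (SE 0.23, adjusted p = 6.68e-05) and -2.71 (SE 0.30, adjusted p = 5.1e-05).

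At 3 weeks of STZ, Ugt2b38 stood at 67.0, 35.6, 38.8, 30.2 and 49.8 CPM in diabetic libraries, against 82.0, 129, 181 and 108 CPM in controls. At 24 weeks it stood at 11.8, 7.82, 12.2, 28.6 and 5.69 CPM, against 52.4, 93.1, 113, 64.5 and 54.0 CPM in controls. Groups did not overlap at either time, and the log2 changes were -1.54 (SE 0.36, adjusted p = 0.0127) and -2.52 (SE 0.36, adjusted p = 0.0013). The 3-week call was lost without control library 3 (adjusted p = 0.0518).

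Ugt2b37 held 14.8, 4.23, 9.36, 13.7 and 10.3 CPM in diabetic libraries at 3 months, against 24.1, 22.3, 39.5, 40.2 and 29.8 CPM in controls. Its log2 changes were -1.58, -2.58, -1.47 and -2.31 at 3 months, 6 months, 3 weeks and 24 weeks (adjusted p = 0.00304, 0.000304, 0.0159 and 0.00196), and diabetic libraries lay below controls each time. The 3-week call was lost without control library 3, diabetic library 2 or diabetic library 3 (adjusted p = 0.0517 to 0.0544).

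Ugt8a, which adds galactose to ceramide in the making of galactolipids, held 19.2, 5.52, 18.3, 12.8 and 20.8 CPM in diabetic libraries at 3 months, against 46.3, 40.3, 59.1, 54.7 and 52.4 CPM in controls. Its log2 changes were -1.73, -1.78, -1.87 and -1.92 in the 4 comparisons (adjusted p = 0.00182, 0.00334, 0.00218 and 0.00404). The groups did not overlap in any of them. No other transcript matched Ugt2b37, Ugt2b38 or Ugt8a over 50 or more bases at 98% identity.

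Of the UGT3A enzymes, which in human use other sugar donors than glucuronic acid, Ugt3a2 was called lower in 3 comparisons and Ugt3a1 in the 2 of the type 2 model. Ugt3a2 held 84.5, 71.6 and 31.6 CPM in diabetic libraries at 6 months, against 179, 179, 203 and 162 CPM in controls, with no overlap (log2 -1.54, SE 0.26, adjusted p = 0.000677). It was lower at 3 weeks as well (log2 -1.01, SE 0.21, adjusted p = 0.0049), and at 3 months (log2 -0.84, adjusted p = 0.0242), a call kept only without diabetic library 1 or 3 or control library 1 or 5 among the 10 left out in turn. At 24 weeks its log2 change of -0.76 was not called by edgeR (adjusted p = 0.0689), but was by DESeq2 (adjusted p = 0.0131) and with all 36 libraries in 1 fit (adjusted p = 0.0433). Ugt3a1 was lower at 3 and 6 months (log2 -1.34 and -2.07, adjusted p = 0.00983 and 0.00104), but not called at 3 or 24 weeks (log2 -0.75 and -0.70). Its 3-month call was lost without diabetic libraries 4 and 5 (adjusted p = 0.0578). The difference between the models was not called for either gene.

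Some markers of the proximal tubule were lower in the same comparisons as these Ugt genes. Over all genes 1.96%, 11.7%, 2.72% and 0.448% were lower at 3 months, 6 months, 3 weeks and 24 weeks. Of the 18 markers 3, 11, 9 and 2 were lower, and 0 were higher. Their median log2 change was -0.39, -1.07, -0.77 and -0.28, and at 3 months Slc5a12, Pck1 and Slc22a8 had 0.09, 0.24 and -0.02. Their summed level, to which Kap contributes, was 5318 to 12079 CPM in diabetic and 13053 to 19578 CPM in control libraries at 3 months, and 4411 to 10533 CPM in diabetic and 14383 to 17833 CPM in control libraries at 6 months. At 3 weeks it was 6826 to 13250 CPM in diabetic and 14785 to 25713 CPM in control libraries, and at 24 weeks 8342 to 14465 CPM in diabetic and 13060 to 21280 CPM in control libraries. No tubule marker was at 0 in a TRAP library. Kap, an androgen-responsive tubule gene, was lower in all 4 (log2 -2.93, -4.41, -4.02 and -4.68). The 7 podocyte markers were lower at 6 months only among the 4 comparisons (7 called), when they summed to 2378 to 13131 CPM in diabetic and 22172 to 26606 CPM in control libraries. The part of these markers in the changes of Ugt genes was not tested.

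**Figure D3:**
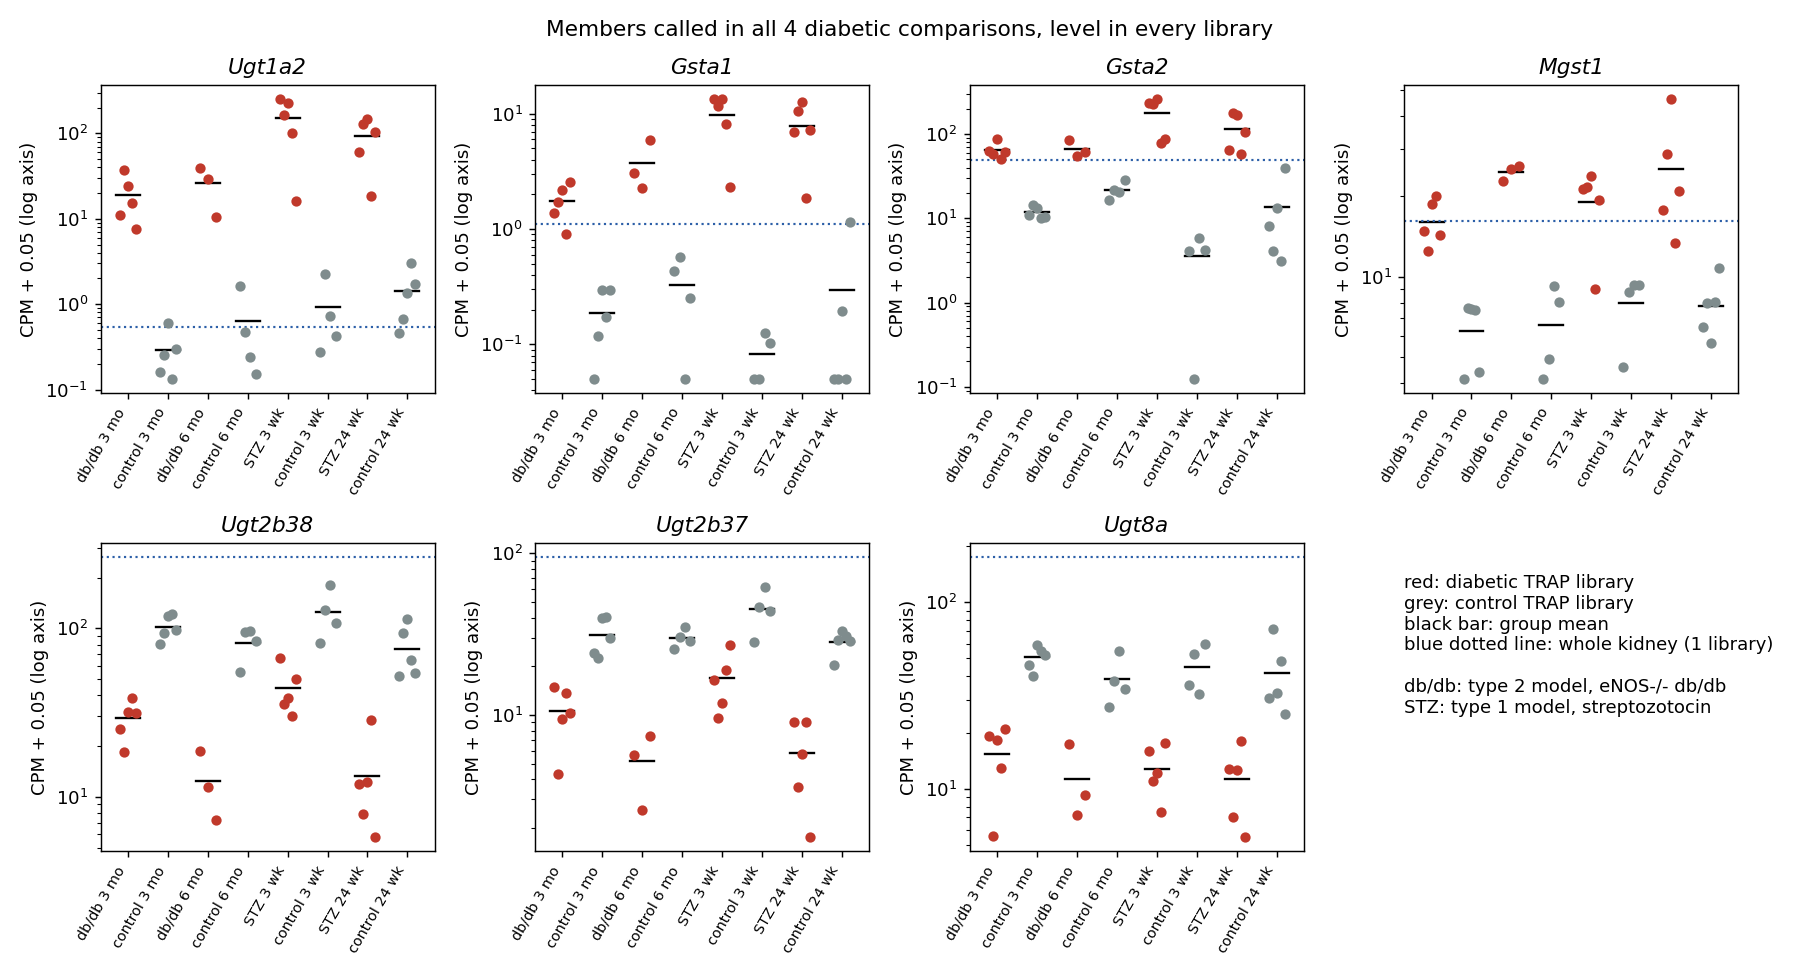
Level in every library (y axis, CPM plus 0.05 on a log axis) of the 7 members called in all 4 diabetic comparisons, by model, age and diabetes. Red points are diabetic and grey points control TRAP libraries, black bars are group means and the blue dotted line is the single whole-kidney library; Ugt1a2 and Gsta2 sit above that line in all diabetic libraries, and Ugt2b38, Ugt2b37 and Ugt8a sit below it in all libraries.

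Gsta1 and Gsta2, alpha-class enzymes known for conjugating products of lipid peroxidation, had the largest log2 rises of the called Gst genes in the type 1 comparisons and at 3 months. Gsta2, on chromosome 9 (78331018 to 78355788, minus strand), held 62.3, 57.5, 87.6, 51.0 and 61.7 CPM in diabetic libraries at 3 months, against 11.0, 14.3, 13.3, 9.97 and 10.4 CPM in controls. Diabetic libraries at 6 months held 84.7, 54.7 and 61.8 CPM, against 16.3, 21.6, 20.2 and 28.6 CPM in controls. Groups did not overlap, and the log2 changes were 2.44 (SE 0.19, adjusted p = 3.59e-07) and 1.61 (SE 0.21, adjusted p = 0.000115). With all 36 TRAP libraries in 1 fit, the 6-month adjusted p was 0.0751.

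In type 1 libraries Gsta2 stood at 236, 227, 261, 77.4 and 86.4 CPM in the diabetic ones at 3 weeks, against 4.02, 0.0733, 5.86 and 4.16 CPM in controls. At 24 weeks it stood at 64.0, 176, 168, 57.5 and 106 CPM, against 8.03, 4.08, 13.05, 3.06 and 39.6 CPM in controls. All diabetic libraries lay above all controls, with log2 changes of 5.61 (SE 0.86, adjusted p = 0.000956) and 3.07 (SE 0.68, adjusted p = 0.0371). The 24-week call was kept only without control library 5 or diabetic library 1 or 4, and was lost without any of the other 7 (adjusted p = 0.0682 to 0.129).

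The transcript of Gsta2 is matched over its whole length by that of another gene, Gm10639, so reads may be split between them. Gm10639 itself was called higher in all 4 comparisons. With both genes summed, an alternative chosen after seeing the data, the log2 changes were 2.48, 1.65, 5.47 and 3.12 (adjusted p = 1.68e-07, 8.15e-05, 0.000405 and 0.0159).

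Gsta1, on chromosome 9 (78230656 to 78242684, plus strand), was scarce in controls. It held 1.32, 1.65, 2.14, 0.855 and 2.49 CPM in diabetic libraries at 3 months, against 0, 0.0671, 0.248, 0.124 and 0.246 CPM in controls (log2 3.63, SE 0.79, adjusted p = 0.0109). At 6 months it held 3.01, 2.22 and 5.86 CPM in diabetic libraries, against 0.384, 0.525, 0 and 0.202 CPM in controls (log2 3.71, SE 0.89, adjusted p = 0.00679). Each diabetic library exceeded each control in both.

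Levels of Gsta1 at 3 weeks of STZ were 13.4, 11.7, 13.4, 8.18 and 2.29 CPM in diabetic libraries, against 0, 0, 0.0751 and 0.0527 CPM in controls. The controls held 2 counts in all and the diabetic libraries 927, a ratio of pooled CPM of 324 with an exact counting interval of 89.4 to 2680 (adjusted p = 0.000587). At 24 weeks diabetic libraries held 6.84, 10.4, 12.6, 1.81 and 7.23 CPM, against 0, 0, 0.144, 0 and 1.10 CPM in controls (log2 4.90, SE 0.87, adjusted p = 0.005). Neither pair of groups overlapped. The transcript is matched over 99.9% of its length by Gm3776, so the 2 cannot be told apart by these counts.

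Mgst1, a membrane-bound transferase of the endoplasmic reticulum, held 14.9, 12.5, 18.7, 19.97 and 14.3 CPM in diabetic libraries at 3 months, against 4.12, 7.62, 7.53, 7.49 and 4.37 CPM in controls. Diabetic libraries at 6 months held 22.8, 25.3 and 26.0 CPM, against 4.10, 4.88, 9.24 and 8.04 CPM in controls. Groups were apart in both, with log2 changes of 1.36 (SE 0.24, adjusted p = 0.00198) and 1.89 (SE 0.29, adjusted p = 0.00032). At 24 weeks the log2 change was 1.70 (SE 0.32, adjusted p = 0.00688), also without overlap. At 3 weeks 1 diabetic library, at 8.98 CPM, fell within the control range of 4.54 to 9.31 CPM, and the call (log2 1.21, SE 0.34, adjusted p = 0.0326) was lost without control library 1 or diabetic library 1, 2 or 3. No other gene shared sequence with Mgst1 at the limits given above.

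Gsto1, an omega-class enzyme that also reduces dehydroascorbate, was higher in both type 2 comparisons. It held 23.2, 16.0, 21.8, 27.0 and 22.8 CPM in diabetic libraries at 3 months, against 7.08, 6.48, 10.3, 8.89 and 8.21 CPM in controls, with no overlap (log2 1.43, SE 0.17, adjusted p = 2.94e-05). At 6 months the log2 change was 1.495 (SE 0.20, adjusted p = 0.000115). In the type 1 model it was 0.74 at 3 weeks and 1.40 at 24 weeks, neither called (adjusted p = 0.302 and 0.0783). The 24-week change was called with all 36 libraries in 1 fit (adjusted p = 0.00859), by DESeq2 (adjusted p = 0.0112) and without diabetic library 4 (adjusted p = 0.0382).

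The other Gst calls were each made in 1 comparison by edgeR. At 6 months Gstt3 and Mgst3 were higher (log2 0.86 and 0.92, adjusted p = 0.00355 and 0.00932), and Gstt3 has 27.9% of its transcript in common with Gm20441. Mgst3 at 3 months (log2 0.68, adjusted p = 0.0558) was also called by DESeq2 and limma (adjusted p = 0.0096 and 0.0261) and with RLE size factors (0.0413), while its 6-month call was lost with all 36 libraries in 1 fit (0.0565). Also at 6 months Gstt1, Gstz1 and Gstk1 were lower (log2 -0.58, -0.61 and -1.50, adjusted p = 0.0363, 0.0315 and 0.0352). Gstz1 is the maleylacetoacetate isomerase of tyrosine breakdown, and Gstk1 is a transferase of mitochondria and peroxisomes. Those 3 calls were lost in 4, 3 and 5 of the 7 fits that left out 1 library: Gstt1 without control 1 or 4 or diabetic 2 or 3, Gstz1 without control 2 or 4 or diabetic 3, and Gstk1 without control 1, 3 or 4 or diabetic 1 or 3. DESeq2 called Gstz1 lower at 3 months as well (adjusted p = 0.0336), and without 3-week diabetic library 4 Gstt1 was called higher at 3 weeks (log2 0.88, adjusted p = 0.0219).

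At 3 weeks of STZ Gstm1, Gstm2 and Gsta3 were higher (log2 0.91, 1.07 and 1.07, adjusted p = 0.0487, 0.0256 and 0.0283). Gstm1, the mu-class member with the highest mean FPKM, held 403, 272, 299.6, 186 and 153 CPM in diabetic libraries, against 83.1, 138, 187 and 133 CPM in controls, so the groups overlapped. Its call was kept, among the 9 fits that left out 1 library, only without control 3 or diabetic 4 or 5. The Gstm2 call was lost without control 1 or diabetic 1, 2 or 3, and the Gsta3 call without control 1 or 3 or diabetic 1, 2 or 3. Without 6-month control library 1, Gsta3 was called lower at 6 months (log2 -0.73, adjusted p = 0.0447).

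Gsta4, the most abundant member on the FPKM scale, was not called in any diabetic comparison by edgeR with all libraries of the groups compared. It held 266, 290.3, 340.5, 93.0 and 140.0 CPM in diabetic libraries at 3 months, against 109, 91.5, 98.1, 60.2 and 81.0 CPM in controls (log2 1.36, SE 0.44, adjusted p = 0.107), a rise that DESeq2 called (adjusted p = 0.0415). At 6 months the log2 change was -0.79 (SE 0.53, adjusted p = 0.295). Diabetic libraries 1, 2 and 3 held 81.2, 154.4 and 17.3 FPKM, against 173, 110, 106 and 118 FPKM in controls. Library 3 had the fewest counts of all TRAP libraries, 6702120. Without diabetic library 2 the Gsta4 change was -1.58 and called lower (adjusted p = 0.0487), a fit left with diabetic libraries 1 and 3. Gstp1, whose transcript is 86.1% in common with Gstp2, had log2 changes of -0.01, -0.37, 0.39 and 0.12, none called. Without 6-month diabetic library 2 its 6-month change was -0.73 and called lower (adjusted p = 0.00307).

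Sulfotransferases gave the fewest calls of the 3 families by edgeR, but also had the fewest genes tested. At 3 weeks 28.6% of the tested Sult genes were called, the same share as of Gst and Mgst genes. Over all genes 3.99%, 22.9%, 6.50% and 0.897% were called at 3 months, 6 months, 3 weeks and 24 weeks. Of the 8 Sult genes tested in the type 2 model 0 were called at 3 or 6 months (1 and 3 at an unadjusted p below 0.05; DESeq2 called 1 and 2, limma 0 and 2, with Sult4a1 among those called). Of the 7 tested in the type 1 model 2 were called at 3 weeks and 0 at 24 weeks (0 at an unadjusted p below 0.05, and 0 by DESeq2 and by limma). Sult1c2 held 77.2, 67.1, 62.9, 47.6 and 55.1 CPM in diabetic libraries at 3 weeks, against 19.3, 30.9, 35.9 and 31.6 CPM in controls, with no overlap (log2 1.03, SE 0.22, adjusted p = 0.0066). Without 6-month control library 3 it was called lower at 6 months (log2 -0.71, adjusted p = 0.0267). Sult4a1, a form best known from brain, had 0.321, 1.73, 1.64, 0 and 0.597 CPM in diabetic libraries at 3 weeks, against 0 in each of 4 controls, so the groups met at 0. Against a floor of 3 counts over the control group it was at least 17.5-fold higher, but the call (adjusted p = 0.0321) was kept only without diabetic 1, 4 or 5. The abundant Sult1d1, which in mouse sulfates catecholamines, had log2 changes of -0.03, -0.01, 0.43 and 0.27, none called, and Sult1a1, the phenol sulfotransferase, had 0.04, -0.12, 0.10 and 0.13, none called.

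Whether the diabetic effect differed between ages or models was tested directly. From 3 to 6 months of the type 2 model it changed for 0 members by edgeR (9 at an unadjusted p below 0.05), where 0% of all genes were called, while DESeq2 called Gstt1 (log2 -0.82, adjusted p = 0.0405) and limma called 0. Without 3-month diabetic libraries 4 and 5, 4 members were called, namely Gstt1, Gsta3, Gsta4 and Gsta2 (log2 -1.01, -1.03, -2.55 and -0.93). Those libraries held the least Gsta4 of their group, so that Gsta4 call follows in part from leaving them out. Without 6-month diabetic library 2, Gsta4 and Gstp1 were called (log2 -2.94 and -0.72). From 3 to 24 weeks of the type 1 model it changed for 0 members (5 at an unadjusted p below 0.05; 0 by DESeq2 and limma), with 0% of all genes called.

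Between the models at the early time, type 2 minus type 1, 2 of 45 members were called, both lower, with 0.940% of all 18511 genes called, 0.373% higher and 0.567% lower. These were Gsta2 (log2 -3.18, SE 0.80, adjusted p = 0.0471), whose rise was 2.44 in the type 2 and 5.61 in the type 1 model, and Gstm1 (log2 -1.22, SE 0.31, adjusted p = 0.0424), with log2 changes of -0.29 in the type 2 and 0.91 in the type 1 model. DESeq2 also called Gstm2 (adjusted p = 0.0271). With Gm10639 added, the Gsta2 difference was -3 (adjusted p = 0.0326). Of 19 fits that left out 1 library, the Gsta2 call was kept in 3, those without type 1 control 3 or diabetic 4 or 5. The Gstm1 call was kept in 5, those without type 2 diabetic 3 or 5, or type 1 control 3 or diabetic 4 or 5. At the late time 0 members were called (9 at an unadjusted p below 0.05; 0 by DESeq2 and limma), with 0.438% of all genes called, 0.178% higher and 0.259% lower. One, Ugt3a1 (log2 -1.91), was called without 6-month diabetic library 1; the ages there are 6 and 8 months.

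Control libraries of different ages were also compared. Type 2 controls at 6 against 3 months gave 0 members (2 at an unadjusted p below 0.05) with 0% of all genes called. Gsta2 alone did not overlap, higher at 6 months (1.2% of all genes; 1.34% were lower without overlap); DESeq2 called Gsta2 (log2 0.90, adjusted p = 0.0149) and limma called 0. Type 1 controls at 24 against 3 weeks gave 0 members (10 at an unadjusted p below 0.05) with 3.70% of all genes called, 2.16% higher and 1.55% lower. Groups did not overlap for 2 members that were higher at 24 weeks (4.98% of all genes), Gstm4 and Gstp1, and 3 that were lower (3.16%), Sult1b1, Sult1d1 and Ugt3a2. Without 3-week control library 2, Gsta4 was called (log2 -1.07). DESeq2 there called Gstp1, Sult1b1 and Sult1d1 (log2 0.63, -2.31 and -0.95), and limma called 0.

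The members were set beside the whole-kidney library to see where their RNA was more abundant. Of 33 members with at least 1 CPM on either side, 32 were lower in 3-month control TRAP libraries than in whole kidney. The median over all 33 was 2.38 times lower (log2 -1.25), against a median log2 of -0.07 over 14404 genes. At least 2 times lower were 26 of the 33 members, where 11.7% of the 14404 genes were. Gsta2 averaged 11.8 ± 1.90 CPM in the 5 TRAP libraries and 49.1 CPM in kidney (95% Poisson interval 46.5 to 51.9), which is 4.04 times lower. Sult1b1 and Ugt8a were 3.44 and 3.43 times lower. Gsta4 was the exception: it averaged 88.0 ± 18.6 CPM in TRAP libraries and 18.2 CPM in kidney (16.6 to 19.9), or 4.73 times higher, a size of 2 times or more that 9.71% of all genes reached. Gstm4 and Gstp1 came closest to parity, Gstm4 at 8.31 ± 1.64 CPM in TRAP libraries against 10.4 CPM in kidney, and Gstp1 at 37.9 ± 3.36 CPM in TRAP libraries against 52.7 CPM in kidney. With 1 kidney library there is no test, and the intervals cover counting error only.

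**Figure D4:**
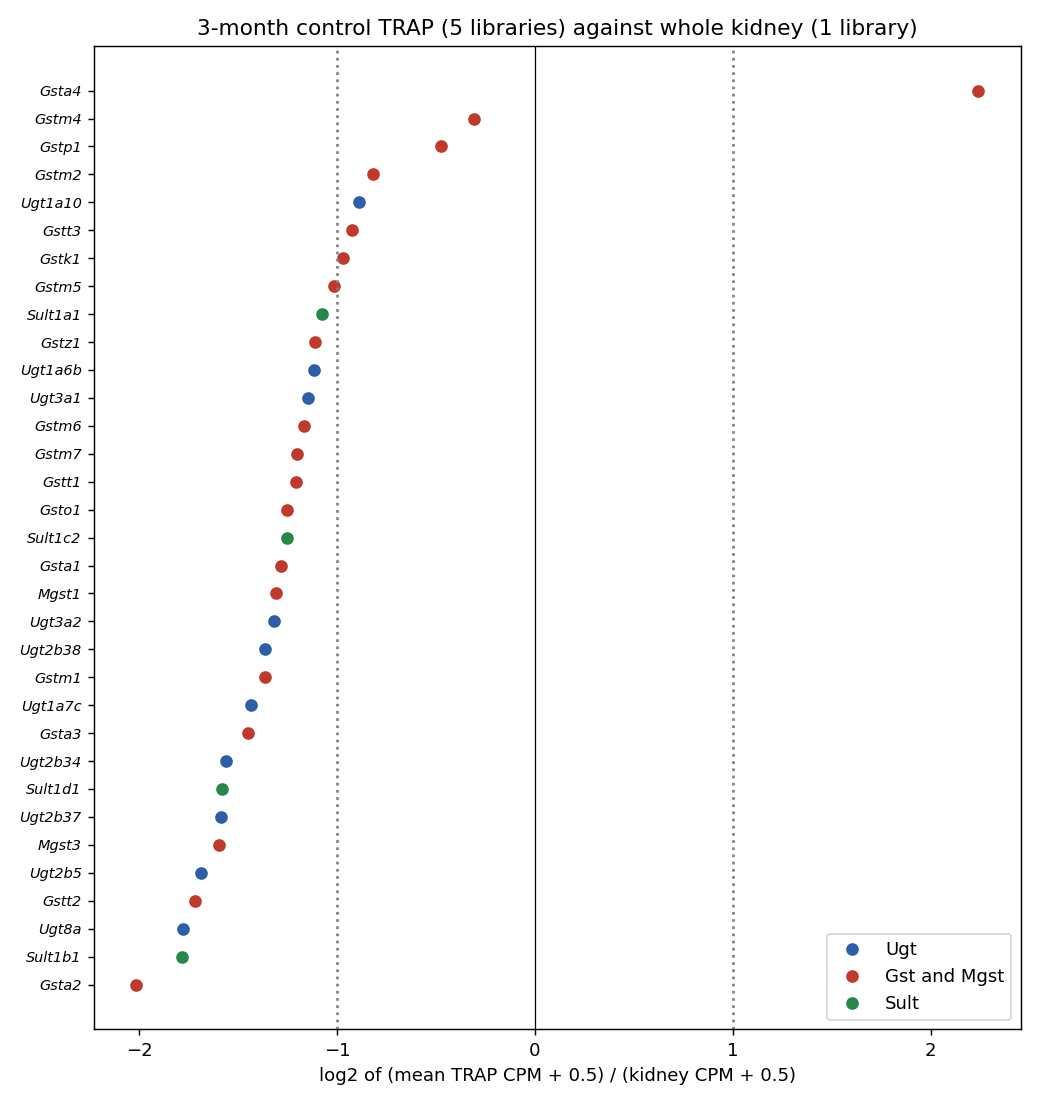
Log2 ratio of mean CPM plus 0.5 in 5 control TRAP libraries (3 months, type 2 model) over CPM plus 0.5 in 1 whole-kidney library (x axis), for the 33 members with at least 1 CPM on either side, coloured by family. Dotted lines mark a ratio of 2 either way; 26 points lie left of them and 1, Gsta4, lies right.

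The genes that supply, trim and export conjugates were followed in a list of 46, of which 45 were in the table. By the same test 3, 7, 6 and 1 were higher and 3, 9, 6 and 1 lower at 3 months, 6 months, 3 weeks and 24 weeks, of 44, 44, 43 and 43 tested. Over all genes 2.03%, 11.2%, 3.78% and 0.448% were higher and 1.96%, 11.7%, 2.72% and 0.448% lower. Of 5 genes listed for steps of mercapturates, which derive from glutathione conjugates, 1, 3, 3 and 1 were lower. The list mixes enzymes, and not all of them form mercapturates. Besides Acy3, those lower were Anpep and Acy1 at 6 months and Nat8 and Acy1 at 3 weeks. Among them Acy3, an aminoacylase, fell in all 4 (log2 -1.71, -2.37, -2.05 and -1.97). Ggt1, the gamma-glutamyl transferase of the tubule brush border, fell in 3 (-1.17, -1.83 and -1.16), with -0.63 and no call at 24 weeks. The counts of tubule markers called lower in each comparison are given above, and their part in these changes was not tested. The export pump Abcc3 rose at 3 months, 6 months and 24 weeks (log2 1.80, 1.34 and 2.29), and Abcc4 rose at 3 months, 6 months and 3 weeks (1.19, 1.25 and 1.29). Of 5 NRF2 targets listed outside the families 1, 2, 4 and 0 were higher. That count leaves out Gclm and Gclc, which were listed with glutathione supply. Gclm was lower at 3 and 6 months (log2 -0.59 and -0.88) and not called at 3 or 24 weeks (-0.38 and -0.31). Gclc was not called (-0.49, -0.29, -0.08 and -0.05). Nqo1, a quinone reductase, was higher at 6 months and 3 weeks (log2 0.87 and 1.60), and Srxn1, a sulfiredoxin, at 3 months, 6 months and 3 weeks (0.39, 0.67 and 0.90). Ugdh, which makes the glucuronic acid donor, was not called (0.11, -0.10, 0.31 and 0.28).

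Some markers of other cell types were higher in the same comparisons. Over all genes 2.03%, 11.2%, 3.78% and 0.448% were higher at 3 months, 6 months, 3 weeks and 24 weeks. Of 5 parietal epithelium markers 1, 4, 2 and 0 were higher. The counts were 2, 4, 2 and 0 of 6 mesangial and smooth muscle markers, and 0, 3, 2 and 0 of 7 macrophage and lymphocyte markers. At 6 months the parietal markers summed to 197 to 395 CPM in diabetic and 90.5 to 134 CPM in control libraries, the mesangial ones to 171 to 697 CPM in diabetic and 125 to 161 CPM in control libraries, and the immune ones to 102 to 192 CPM in diabetic and 50.4 to 94.6 CPM in control libraries. At 3 weeks the parietal sum was 190.1 to 279.6 CPM in diabetic and 114 to 173.5 CPM in control libraries. The mesangial sum was then 167 to 534 CPM in diabetic and 154 to 364 CPM in control libraries, and the immune sum 70.9 to 182 CPM in diabetic and 29.5 to 73.7 CPM in control libraries. Cd79a, a B cell gene, was at 0 in all 3-week controls. Of 4 thick limb and distal tubule markers 1, Calb1, was higher at 3 and at 24 weeks (log2 1.06 and 1.05, adjusted p = 0.0204 and 0.0464). Of 6 endothelial markers 1, Cdh5, was higher at 3 weeks (log2 1.13, adjusted p = 0.0232), and 1 was lower at each age of the type 2 model. The part of these markers in the higher Ugt and Gst genes was not tested.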

How the data were processed

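The labels describe 37 mouse libraries made with a NuGEN Ovation kit after DNase treatment. The authors deposited counts per gene and FPKM for 32108 genes. Tools listed in the submitters' processing notes are featureCounts 1.15.2, STAR, cutadapt 1.16 and FastQC. The deposited FPKM followed from the counts and gene length within 0.001 for 100% of values. The notes name mm9, but 99.981% of 31871 genes matched by identifier overlapped their place on GRCm38 (GENCODE release 21), so positions are given on GRCm38. The strand setting of the counting is not given in the sources here.

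Tests used edgeR 4.0.16 under R 4.3.3 on the counts (TMM, default filter by group, robust quasi-likelihood F test, Benjamini-Hochberg adjustment over all genes tested, called at an adjusted p below 0.05). One fit held 17 type 2 libraries (17180 genes), one 19 type 1 libraries (16279 genes) and one all 36 TRAP libraries (18511 genes) for contrasts between models. Printed CPM are counts over TMM-scaled library sizes of all 37 libraries. An SE is the log2 change over the root of F. Members and lists were chosen with earlier results of these data known. Values per library are given for called members, at most 10 per comparison by p, the 3 highest by FPKM in each family and the extremes of the TRAP to kidney ratio; Ugt1a1, Ugt1a7c, Gstt1, Gstz1, Gstk1, Mgst3, Gsta3, Gstm2 and Sult4a1 were named after their values were seen, as was Ugdh among pathway genes. Shared sequence was found with BLAST 2.17.0 (50 bases, 98% identity).

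Alternatives were DESeq2 1.42.0, RLE factors, no filter, limma 3.58.1 on log2(FPKM + 0.5), all 36 libraries in one fit, a replicate block, removal of Rn18s-rs5, the Ugt1a genes summed, 2 libraries left out together and each library left out in turn. The fits were tested on simulated data, with changes set only in genes above a limit of mean count. Recovery may be lower for members with few counts. Of 2-fold changes 64%, 40%, 51% and 46% were recovered at 3 months, 6 months, 3 weeks and 24 weeks. Between models 19% were recovered at the early and 12% at the late time. Of 4-fold changes 88%, 81%, 79% and 78% were recovered in the 4 diabetic comparisons, and 65% and 69% between models. A change that was not called may therefore have been missed. Reads carry no molecular identifiers, so intervals cover counting error only. Plots were drawn with matplotlib 3.10.9.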

Additional observations from a re-analysis of the deposited data

Results flagged for a closer look

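Of 202 sets of 4 or 5 libraries checked for a single value far from the rest, 16 were marked by Dixon's criterion, and chance marks about 1 in 20. Among 24-week controls, library 5 stood high for Gsta1 (1.10 CPM, others 0 to 0.144) and Gsta2 (39.6 CPM, others 3.06 to 13), library 3 was low for Gstt3 (13.1 CPM) and high for Ugt1a1 (1.37 CPM), and library 1 was high for Sult1a1 (17.8 CPM, others 4.34 to 7.29). Among 24-week diabetic libraries, number 4 was high for Ugt2b38 (28.6 CPM, others 5.69 to 12.2) and number 3 for Ugt3a2 (124 CPM). At 3 weeks diabetic library 1 was high for Ugt1a10 (53.3 CPM), and control library 1 was low for Mgst1 (4.54 CPM) and high for Ugt2b34 (8.63 CPM, others 3.31 to 3.96). At 6 months control library 1 was high for Gsta4 (180 CPM, others 105 to 112) and low for Sult1a1 (2.37 CPM), and control library 4 alone held Ugt1a1 (0.336 CPM) and had the highest Sult4a1 (0.336 CPM). At 3 months control library 3 was low for Ugt2b34 (2.23 CPM) and alone held Sult4a1 (0.198 CPM).

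Gsta2 and Gstm1 were called by a test of the difference in early diabetic effect, type 2 minus type 1 (log2 -3.18 and -1.22). Both calls lay near the limit (edgeR, adjusted p = 0.0471 and 0.0424). Among the alternatives the call was made in 8 of 27 for Gsta2 and in 9 of 26 for Gstm1.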

How the results depend on the processing

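Of 896 log2 changes recomputed for called members, 771 kept direction and call, 125 lost the call and 0 changed direction; of 1085 for members not called, 58 changed direction and 28 became called. At 3 months Gstp1 (-0.006) became 0.011 with DESeq2 and RLE factors, 0.008 with no filter, 0.084 with limma, 0.041 without diabetic libraries 4 and 5, and -0.048 to 0.032 leaving out 1 library. With limma Sult1d1 was 0.026 at 3 months and 0.16 at 6 months (0.039 with DESeq2 and RLE), Sult1a1 0.066 at 6 months and -0.127 at 3 weeks, Sult1b1 -0.034 and Gstm2 0.091 at 6 months. Without libraries 4 and 5, Sult1a1 was -0.158, Sult1d1 0.105 and Gstk1 0.253 at 3 months. Same-numbered libraries correlated by -0.075 to 0.142 over 17 pairs, with 5 best matched to their own number. That gave little sign that numbers pair libraries, but low correlations cannot exclude pairing. With a replicate block Sult1b1 was -0.673 at 6 months, Gstm4 -0.265 and Sult1a1 -0.186 at 3 weeks, and Gstt3 -0.002 at 24 weeks. Gsta1 at 3 and 6 months and Gsta2 at 24 weeks lost their calls (adjusted p = 0.057, 0.0614 and 0.0663). These were 3 of the 11 calls lost under the block. Ugt2b34 at 3 months was called under it (adjusted p = 0.0337). Leaving out 1 library at 3 months gave Sult1a1 -0.122 to 0.47, Sult1d1 -0.114 to 0.087 and Gstk1 -0.32 to 0.08. At 6 months it gave Gstm4 -0.188 to 0.471, Sult1a1 -0.495 to 0.154, Sult1b1 -1.702 to 0.597, Sult1d1 -0.252 to 0.236 and Gstm2 -0.357 to 0.122. At 3 weeks it gave Gsta4 -0.423 to 0.055, Gstm4 -0.165 to 0.212, Sult1a1 -0.133 to 0.428 and Gstk1 -0.022 to 0.184. At 24 weeks it gave Gsta4 -0.275 to 0.001, Gstt3 -0.03 to 0.265, Sult1a1 -0.048 to 0.606, Sult1d1 -0.012 to 0.461 and Gstm2 -0.046 to 0.254. Members called ranged over 9 to 18 at 3 weeks, 0 to 3 for the early difference between models, 0 to 1 for the late one, 0 to 2 for the change from 3 to 6 months and 0 to 1 for type 1 controls by age. The early difference held 3 members with DESeq2, which added Gstm2, 1 with RLE, limma, the block or without libraries 4 and 5, and 0 with no filter. DESeq2 gave 1 member for the change from 3 to 6 months, 1 for type 2 and 3 for type 1 controls by age, the last being 2 in the fit of 36 libraries. Without libraries 4 and 5 the change from 3 to 6 months held 4. The cause of these shifts was not tested. Low counts limit Gsta1, Ugt1a1, Ugt1a2 and Sult4a1 in controls. Ugt1a2 controls summed to 27, 40, 49 and 118 counts at 3 months, 6 months, 3 weeks and 24 weeks. The 3-month log2 change of Ugt1a2 was 3.80 to 6.86 over 18 alternatives, and 18 called it.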
